A study of Homo sapiens with 3 samples.

Results

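A set of 42 genes of ribosome biogenesis and the nucleolus, many of them classical targets of the transcription factor MYC, was followed in HT29 cells across 3 culture substrates. The set is a list of gene symbols whose rule uses no measured value, but it was chosen with earlier results of these data known. Its members were found among the 21610 genes that the array probes could be matched to. HT29, a widely used human cell line from an adenocarcinoma of the colon, was cultured on tissue culture polystyrene (TCP, labelled 2D), on a chitosan membrane (CS) or on a chitosan membrane grafted with hyaluronan (CSHA). Total RNA of each culture was labelled with Cy3 and hybridized to 1 single-colour array, and the 3 arrays lay on 1 slide. The labels name the substrate as the difference between the groups and give no drug, transgene or other treatment for any of them. With 1 array per substrate no difference has a replicate check, so no p-value is given and a difference between arrays cannot be told apart from one between cultures.

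Ribosomes are built in the nucleolus. RNA polymerase I transcribes a long precursor RNA there, small nucleolar ribonucleoprotein particles guide its chemical modification, and sets of assembly factors fold, cut and export the small and large subunits. MYC, which binds DNA as a dimer with MAX at the E-box letters CACGTG, is well known for raising the transcription of many of these genes in growing cells and is often highly active in colon cancer.

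The level of a gene is given here as the log2 of the background-corrected signal of its brightest probe, minus the log2 of the 75th percentile of that array, so that 0 is the brightness of the 75th percentile probe. Levels of different genes come from different probes and are not set against each other. A difference of 1 between arrays is a factor of 2, and 2-fold was the size taken as a large difference. The scanner software gives each spot an error, which for a difference between arrays came to between 0.20 and 0.22 on the log2 scale for these genes. It covers the spots and not the cultures. Of the 42 genes, 41 had a value on every array, and all 41 were well above background on all 3 arrays. The 1 spot of GAR1, a protein of the box H/ACA particle, was marked as non-uniform on the TCP array and was left out. Its levels on the other arrays were 5.34 on CS and 5.63 on CSHA. If the marked spot were used, GAR1 would stand at 6.42 on TCP, which is 1.08 above CS and 0.79 above CSHA.

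Promoter windows of 300 bases, from 250 bases before to 50 after the RefSeq start on GRCh38.p14, were at hand for 35 of the 42 genes. The canonical E-box CACGTG, which reads the same on either strand, stood in the window of 17 of the 35, or 48.6%, against 8.77% of the 27305 genes with a window and 12.1% of the 11379 of these measured on the arrays. It occurred at 19 places in the 17 genes, and 16 of the 19 began within 36 bases of the start, on either side. The limit of 36 bases was set from these sites, being the distance of the farthest of the 16. The 3 farther ones were in SRM, NOP10 and TERT. In 11 genes the motif lay after the start and in 7 before it, ODC1 being in both counts. Positions in the windows of all genes were not counted, so these position counts have no background share. The variant E-box CACGCG was searched for on both strands and found in 9 of the 35, or 25.7%, against 13.5% of all genes and 20.8% of measured genes. The letters TCTCGCGA, again on both strands, were found in 3 of the 35, or 8.57%, against 1.37% and 2.51%. Matches of the latter motifs on opposite strands can share letters, which adds places but no genes to these counts. The median GC content was 65.0% in the genes of the set, 64.7% in measured genes and 58.3% in all genes with a window. Members with several annotated starts count as holding a motif if any of their windows did.

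The sequences below show the contrast that the results return to, genes that were low on CSHA beside genes that were not. SRM, the lowest gene on CSHA, has its E-box starting 199 bases before the start (chr1:11060019-11060268, minus strand). NOP2, also low on CSHA, has its E-box starting at base 36 of the transcript (chr12:6568242-6568268, minus strand). PPAN, low on both membranes, holds none of the searched motifs in this window (chr19:10105973-10106222, plus strand). UBTF, the highest of the set on CSHA, holds the variant E-box, here read as CGCGTG, 15 bases before the start (chr17:44220883-44221132, minus strand). NOP10, the highest on CS, holds 2 canonical E-boxes, at 170 and 11 bases before the start (chr15:34343137-34343386, minus strand). Each sequence is written 5′ to 3′ on the strand of its gene, with the motif in capitals, and for all but NOP2 it is the 250 bases before the start.
SRM: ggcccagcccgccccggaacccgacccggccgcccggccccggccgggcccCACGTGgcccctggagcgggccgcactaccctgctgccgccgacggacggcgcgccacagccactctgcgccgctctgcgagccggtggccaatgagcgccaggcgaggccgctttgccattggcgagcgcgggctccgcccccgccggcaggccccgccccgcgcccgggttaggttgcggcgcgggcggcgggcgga
NOP2: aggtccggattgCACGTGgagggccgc
PPAN: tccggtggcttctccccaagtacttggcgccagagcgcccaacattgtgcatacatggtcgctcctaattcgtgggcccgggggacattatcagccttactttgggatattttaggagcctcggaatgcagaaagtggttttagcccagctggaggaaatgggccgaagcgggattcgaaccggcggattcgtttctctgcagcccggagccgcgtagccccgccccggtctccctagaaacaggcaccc
UBTF: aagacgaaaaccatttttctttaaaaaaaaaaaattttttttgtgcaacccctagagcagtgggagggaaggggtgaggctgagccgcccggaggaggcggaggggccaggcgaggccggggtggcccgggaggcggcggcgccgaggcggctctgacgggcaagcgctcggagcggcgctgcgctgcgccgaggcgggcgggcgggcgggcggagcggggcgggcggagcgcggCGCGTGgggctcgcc
NOP10: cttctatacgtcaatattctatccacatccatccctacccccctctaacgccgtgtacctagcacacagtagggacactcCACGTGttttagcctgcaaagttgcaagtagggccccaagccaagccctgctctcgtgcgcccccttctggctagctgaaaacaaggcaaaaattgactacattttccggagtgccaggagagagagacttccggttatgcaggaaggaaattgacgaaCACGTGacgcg

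Across the set, the 2 membranes differed from TCP in different ways. On CS, 18 of the 41 genes stood above their TCP level and 23 below it, or 43.9% above, where 56.8% of all genes were. The median difference was -0.04, beside 0.04 over all 14462 genes compared. None of the 41 was at least 2-fold lower or higher on CS, where 1.85% of all genes were at least 2-fold lower, 1.36% were at least 2-fold higher, and 0.593% of the 13484 genes measured on all 3 arrays were at least 2-fold lower. For 28 of the 41 the difference on CS was smaller than the software error of the spots, as it was for 8633 of the 14462 genes compared.

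On CSHA, 19 genes stood above and 22 below their TCP level, or 46.3% above, where 61.7% of all genes were. The median difference was -0.01, beside 0.13 over all 14623 genes compared. Here 5 of the 41, or 12.2%, were at least 2-fold lower, where 3.98% of all genes and 3.3% of genes measured on all arrays were. These 5 were SRM, NOP2, PPAN, RRP12 and CAD. None was at least 2-fold higher, where 3.02% of all genes were. At a threshold of 1.5-fold, 7 of the 41, or 17.1%, were lower on CSHA, where 11.2% of all genes were. The middle of the set hardly moved, but its lower quartile was -0.46 while its upper quartile was 0.16, so the spread lay on the low side. The corresponding quartiles of all genes were -0.20 and 0.37. CS and CSHA were both set against the same TCP array, so both comparisons share that array's error.

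Between the membranes, 17 genes stood above and 24 below their CS level when cells were on CSHA. That is 41.5% above, where 58.5% of all genes were. The median was -0.06, beside 0.07 over all 14596 genes compared. NOP2 and SRM were at least 2-fold lower on CSHA than on CS, where 2.15% of all genes and 1.51% of genes measured on all arrays were. None was at least 2-fold higher, where 2.23% of all genes were.

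The direction of the set as a whole depended on the scaling. With the arrays scaled to the 7 brightest spike-in probes in place of the 75th percentile, every difference of CSHA from TCP was higher by 0.41 and the median of all genes stood at 0.54. Then 29 genes stood above and 12 below TCP on CSHA, 23 above and 18 below TCP on CS, and 31 above and 10 below CS on CSHA. SRM alone remained at least 2-fold lower on CSHA under that scaling, where 1.32% of all genes were. The median of the set on CSHA was then 0.41. Less the median of all genes, the set's median was -0.08 on CS under both scalings. On CSHA and between the membranes it was -0.13 under both. In all that follows, higher and lower mean relative to the 75th percentile of the array.

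**Figure D1:**
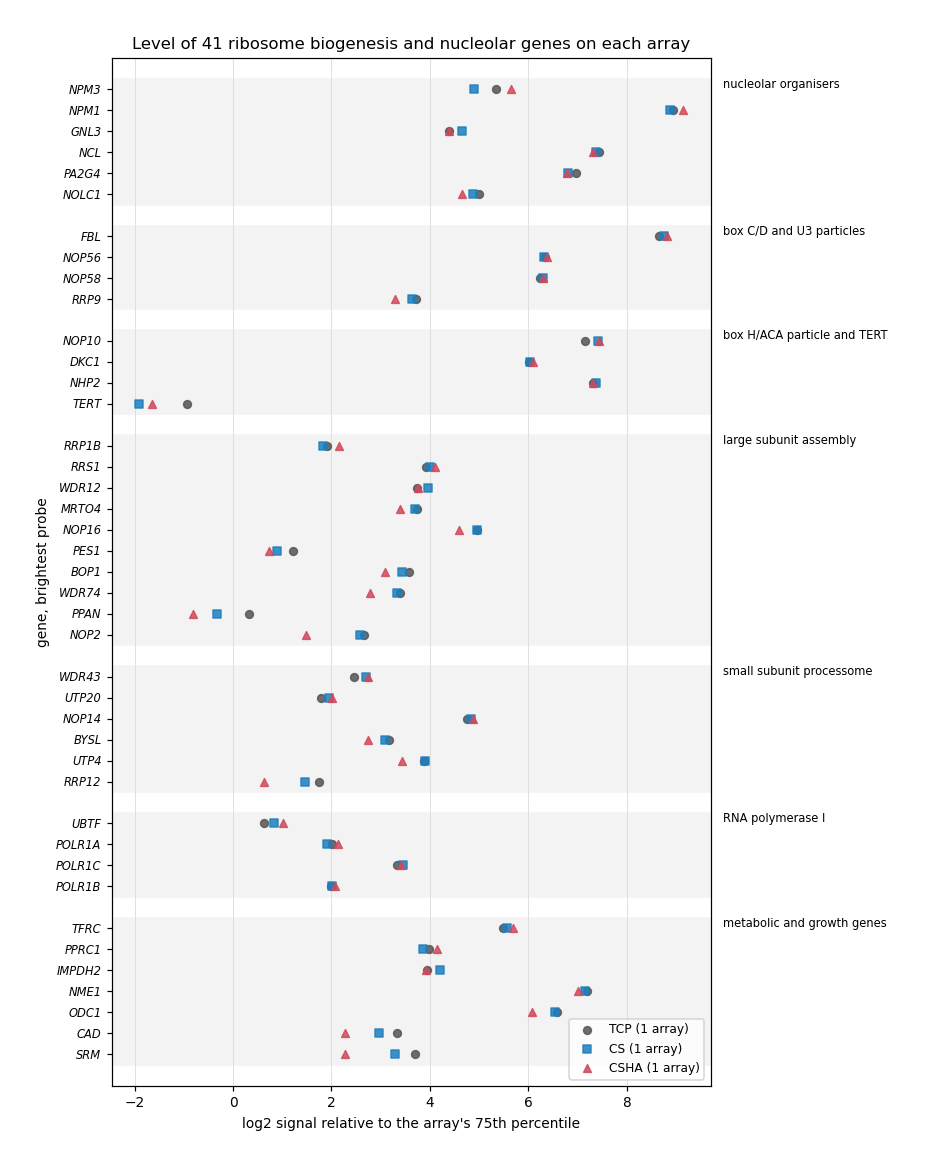
Level of each of the 41 genes on the TCP, CS and CSHA arrays (x axis, log2 signal relative to the 75th percentile of the array, 1 array per substrate), by role and ordered by CSHA minus TCP. For most genes the 3 points nearly coincide, while SRM, CAD, NOP2, PPAN and RRP12 have their CSHA point more than 1 unit left of their TCP point.

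**Figure D2:**
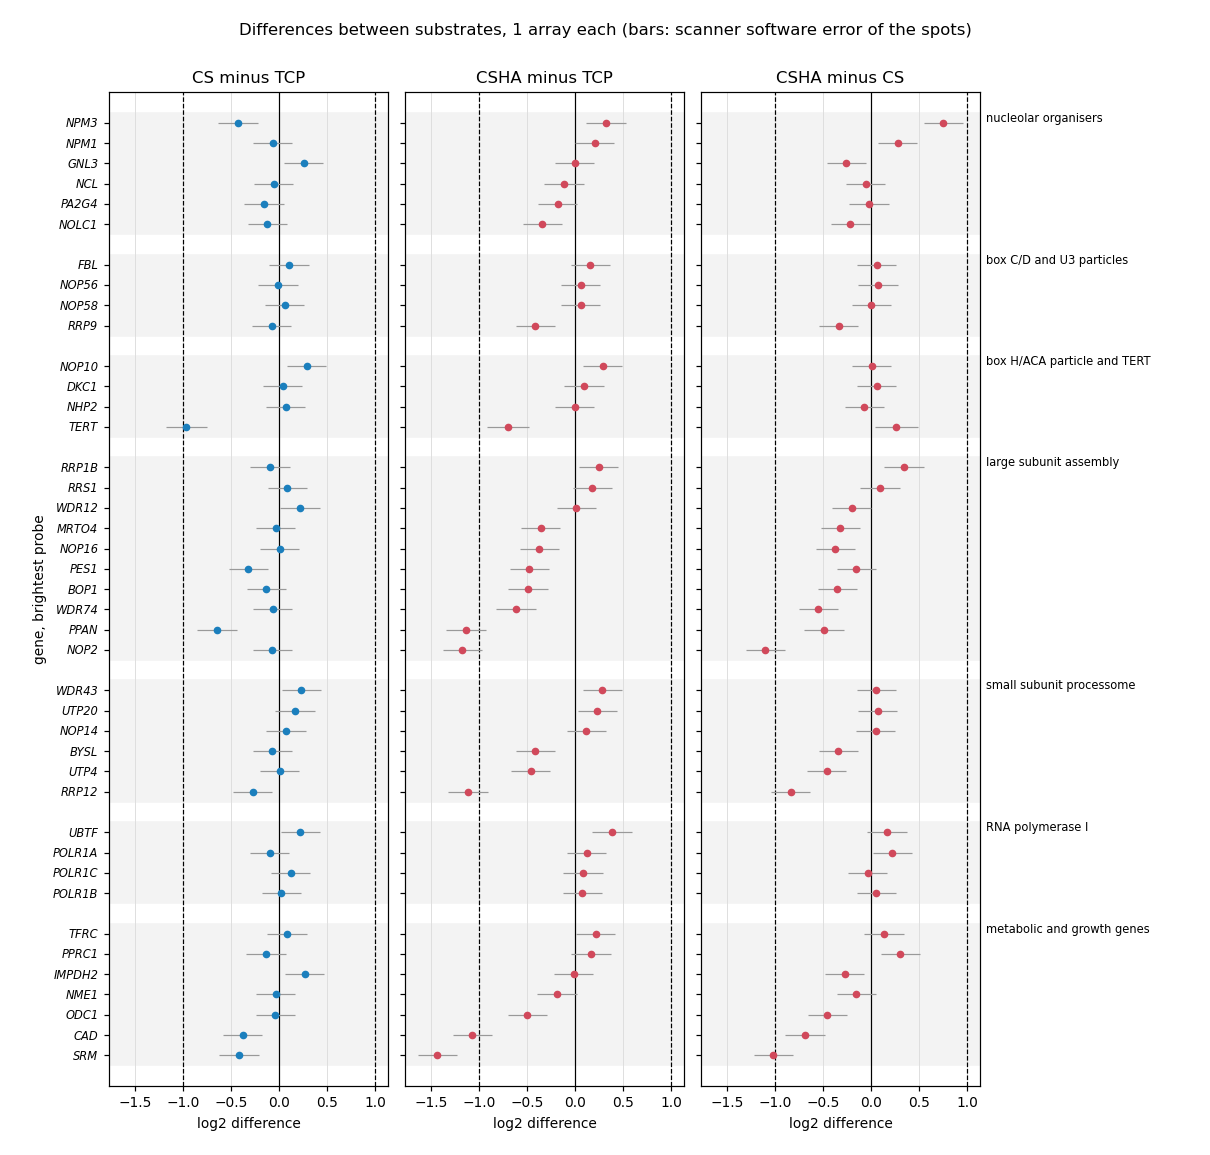
Log2 difference of each gene in the 3 comparisons between substrates, with the software error of the spots as bars and 2-fold marked by dashed lines. No gene lies beyond the dashed lines on CS, 5 lie beyond the lower line for CSHA minus TCP, and 2 for CSHA minus CS.

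**Figure D3:**
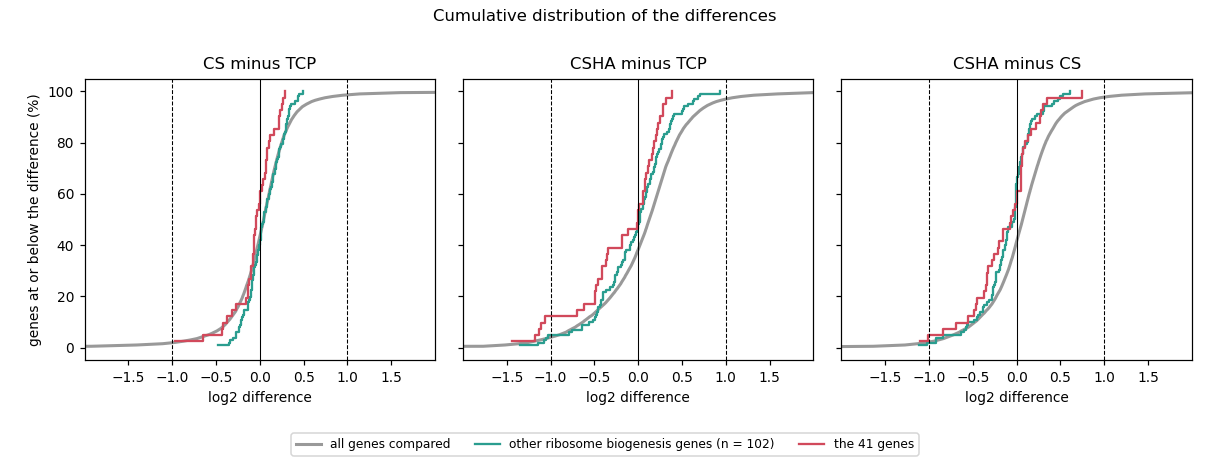
Percent of genes at or below each log2 difference (x axis) for all genes compared, the 102 other ribosome biogenesis genes and the 41 genes, drawn between -2 and 2. In the CSHA minus TCP panel 12.2% of the 41 genes, 4.90% of the other ribosome biogenesis genes and 3.98% of all genes lie beyond the lower dashed line, which marks 2-fold.

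The nucleolar organisers and chaperones were close together on the 3 substrates. NPM3, a histone chaperone of the nucleoplasmin family, stood at 5.33 on TCP, 4.90 on CS and 5.65 on CSHA. It was the lowest of this group on CS and the highest on CSHA, and its difference between the membranes, 0.75, was the only one in the set that reached 1.5-fold upward. NOLC1, a chaperone that shuttles between nucleolus and cytoplasm and binds small nucleolar particles, stood at 5.004, 4.88 and 4.66, a difference of -0.34 on CSHA. The other 4 lay between -0.18 and 0.20 on CSHA. They were nucleolin (NCL) at -0.12, nucleophosmin (NPM1) at 0.20, nucleostemin (GNL3) at -0.01 and PA2G4, a growth-regulated RNA-binding protein, at -0.18. The group median was -0.06 on CSHA and -0.10 on CS. With the spike-in scaling all 6 were higher on CSHA, with a median of 0.35 beside 0.54 for all genes.

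Box C/D particles guide ribose methylation of ribosomal RNA, and by their brightest probes 3 of the 4 genes of this group lay within spot error of TCP on CSHA. So did 5705 of the 14623 genes compared. Fibrillarin (FBL), the methyltransferase of the particle, stood at 8.65 on TCP, 8.76 on CS and 8.81 on CSHA. Its scaffold partners NOP56 and NOP58 differed from TCP by 0.06 and 0.05 on CSHA. The other NOP56 probes, for the same transcript, were at -1.07 and -0.10. RRP9, a protein particular to the U3 particle that directs early cleavages of the precursor, stood at 3.71, 3.63 and 3.30. RRP9 was thus the member of this group below TCP on CSHA, by 0.42.

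In the box H/ACA particle, which guides the conversion of uridine to pseudouridine and also stabilizes telomerase RNA, NOP10 stood at 7.14 on TCP, 7.43 on CS and 7.43 on CSHA. It was higher by 0.28 and 0.29, somewhat beyond the software error. The pseudouridine synthase dyskerin (DKC1) was at 0.04 and 0.09 on CS and CSHA, and NHP2 at 0.07 and -0.00. TERT, the telomerase reverse transcriptase, was listed with them because it works in a complex that holds these proteins. Its probe was printed 10 times, and over the 9 or 10 spots that were not marked as outliers its level on TCP was -0.94 ± 0.11, on CS -1.90 ± 0.12 and on CSHA -1.64 ± 0.11 (SD among spots of 1 array, n = 10, 9 and 9). TERT was therefore the gene farthest below TCP on CS, by 0.97, and it was lower by 0.70 on CSHA. Its signal was dim, at 185, 113 and 108 units, and with a normexp background correction the differences were -0.70 and -0.49.

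Of the factors that assemble the large subunit, 7 of 10 were lower on CSHA, where 38.3% of all genes were, with a group median of -0.43 beside -0.07 on CS. With the spike-in scaling, 5 of the 10 were lower and the median was -0.01. NOP2, a methyltransferase that modifies a cytosine of the large ribosomal RNA and is known as the proliferation antigen p120, stood at 2.66 on TCP, 2.59 on CS and 1.49 on CSHA. TCP and CS were within spot error of each other and CSHA was 2.26-fold lower than TCP. PPAN, the Peter Pan homolog needed for large subunit maturation, stood at 0.32, -0.32 and -0.82. Read-through transcripts that join it to its neighbour P2RY11 are known, and the probe could read these too. It was stepwise lower, by 0.65 on CS and by 1.14 on CSHA. Its signal was also dim, 443 units on TCP and 192 on CSHA, and the difference on CSHA was -0.88 with the normexp correction and -0.92 in the deposited log2 values. WDR74, a nucleolar factor that works with an AAA ATPase on early large subunit particles, stood at 3.39, 3.32 and 2.77, so that CSHA alone was low, by 0.62.

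The PeBoW complex, made of PES1, BOP1 and WDR12 and required for processing of the large subunit RNA, did not move as a unit. BOP1 was at -0.14 on CS and -0.49 on CSHA, PES1 at -0.32 and -0.48, and WDR12 at 0.22 and 0.01. NOP16 and MRTO4, which bind early large subunit particles, were within 0.04 of TCP on CS and at -0.37 and -0.36 on CSHA. RRP1B, a nucleolar regulator of phosphatase activity, was the highest of the group on CSHA, with levels of 1.92 on TCP, 1.82 on CS and 2.16 on CSHA. RRS1, which helps to load the 5S particle, was at 0.09 and 0.18.

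The small subunit processome, the large complex that forms on the growing precursor RNA, was divided evenly, with 3 genes higher and 3 lower on CSHA. Of all genes, 61.7% were higher and 38.3% lower. RRP12, a HEAT-repeat protein of subunit maturation and export, stood at 1.74 on TCP, 1.47 on CS and 0.63 on CSHA, which is 2.17-fold lower on CSHA than on TCP. UTP4 and BYSL, also called bystin, were lower on CSHA as well, at -0.46 and -0.41, and within spot error of TCP on CS, at 0.00 and -0.07. WDR43, another processome subunit, stood at 2.47, 2.70 and 2.75 and was the highest of this group on CSHA. UTP20 was at 0.23 and NOP14 at 0.12. The low members here were low on CSHA and close to TCP on CS, with RRP12, at -0.28 on CS, in between.

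The RNA polymerase I genes were higher on CSHA in 4 of 4 cases by their brightest probes, by small amounts, where 61.7% of all genes were higher. UBTF, the factor that keeps ribosomal DNA open for polymerase I, stood at 0.62 on TCP, 0.84 on CS and 1.01 on CSHA. Its difference on CSHA, 0.38, was the highest of the whole set. POLR1A, the largest subunit, was at -0.10 on CS and 0.12 on CSHA. POLR1C, a subunit shared with polymerase III, was at 0.12 and 0.08, but its other probe, for the same transcript, was at -0.33 and -1.44 and gave the opposite direction. POLR1B stood at 1.99, 2.01 and 2.07, the smallest difference of the group on CSHA. The group median was 0.10 on CSHA, below the 0.13 of all genes. Within spot error lay 3 of the 4 differences, as did those of 5705 of the 14623 genes compared.

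Metabolic and growth genes held the lowest gene of the set. On CSHA, 5 of these 7 were lower, where 38.3% of all genes were. With the spike-in scaling 3 of the 7 were lower. SRM, spermidine synthase, stood at 3.71 on TCP, 3.29 on CS and 2.27 on CSHA. It was lower on each membrane, by 0.42 on CS and by 1.44 on CSHA, the latter 2.71-fold, and under the alternatives its difference on CSHA ran from -1.495 to -1.02. CAD, which carries out the opening steps of pyrimidine synthesis, stood at 3.34, 2.96 and 2.27 and was 2.10-fold lower on CSHA than on TCP. Like SRM it was lower on CS too, by 0.38. ODC1, ornithine decarboxylase, the step before spermidine synthase in polyamine synthesis and a textbook MYC target, was at -0.04 on CS and -0.50 on CSHA. IMPDH2, the rate-limiting enzyme of guanine nucleotide synthesis, was at 0.26 and -0.02, so that the purine and pyrimidine enzymes did not share a direction on CS. NME1, a nucleoside diphosphate kinase, was at -0.19 on CSHA and PPRC1, a coactivator of mitochondrial biogenesis, at 0.16. TFRC, the transferrin receptor, was the highest of this group on CSHA, with levels of 5.48 ± 0.03 on TCP, 5.56 ± 0.06 on CS and 5.69 ± 0.06 on CSHA (SD among 10 spots of 1 array). Without the metabolic genes and TERT, the median of the remaining 33 genes was -0.01 for CS and 0.01 for CSHA.

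On CSHA, CAD at -1.07 was the gene nearest to 2-fold among those past it and TERT at -0.70 the nearest short of it, while WDR74 at -0.62 and ODC1 at -0.50 stood on either side of 1.5-fold.

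Of the set, 6 genes were measured by more than 1 probe, and in 3 of them a dimmer probe was at least 2-fold lower on CSHA where the brightest was not. The brightest DKC1 probe stood at 6.01 on TCP, 6.04 on CS and 6.10 on CSHA. Its other probe, matched to a different RefSeq transcript, stood at 0.80, -0.08 and -0.25. The dimmer probe was therefore lower by 0.87 on CS and by 1.05 on CSHA. Probe sequences were not used, so whether it reads the messenger RNA of DKC1 or an RNA from its introns was not tested. For NOP56 the brightest probe was at 0.06 on CSHA, the next, designed to the same transcript, at -1.07 and the dimmest at -0.10. For POLR1C the brightest was at 0.08 and the other, again for the same transcript, at -1.44. NPM1 had 4 probes, and all of them were higher on CSHA, at 0.20, 0.27, 0.38 and 0.47. The probes of NOP14, at 0.12 and 0.08, and of PA2G4, at -0.18 and -0.04, lay close together. Probes of a gene spread over at least 1 log2 unit on CSHA against TCP in 3 of these 6 genes and in 13.3% of the 3500 genes with several measured probes. On CS against TCP this was so for 0 of the 6 and for 1.89% of the 3500. The other 35 genes, the 5 that were 2-fold lower on CSHA among them, rest on 1 probe each.

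**Figure D4:**
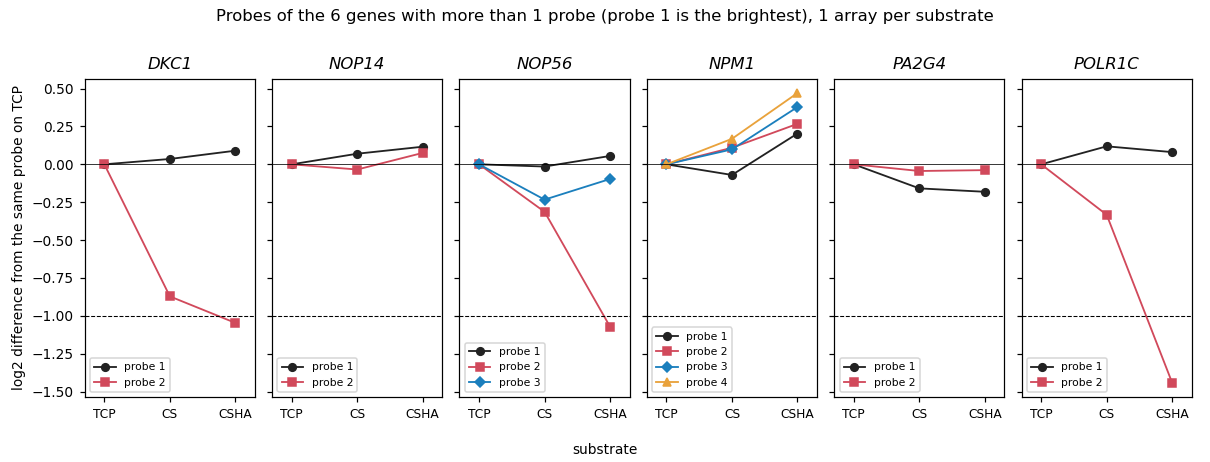
Log2 difference from TCP of every probe of the 6 genes with more than 1 probe (y axis) on the 3 substrates (x axis), with the brightest probe in black and 2-fold lower as a dashed line. The dimmer DKC1 probe, the middle NOP56 probe and the dimmer POLR1C probe fall below the line on CSHA, while all 4 NPM1 probes lie above 0.

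A wider list of 103 other ribosome biogenesis genes was read in the same way, and 102 had a value, all but RIOK1. On CS, 61 were higher and 41 lower, or 59.8% higher, where 56.8% of all genes were. The median was 0.04, the same as over all genes. None was at least 2-fold lower or higher, where 1.85% and 1.36% of all genes were. On CSHA, 54 were higher and 48 lower, or 52.9% higher, where 61.7% of all genes were. The median was 0.02, beside 0.13 over all genes. At least 2-fold lower were 5, or 4.90%, close to the 3.98% of all genes. These 5 were RUVBL2, an ATPase that helps to assemble the box C/D particles (4.53 on TCP, 4.28 on CS and 3.17 on CSHA), IMP4, a U3 particle protein (3.90, 3.68 and 2.75), the polymerase I subunit POLR1E (1.05, 0.82 and -0.03), the RNA helicase DDX52 (0.34, -0.14 and -0.72) and the SUMO protease SENP3 (1.91, 1.90 and 0.88). Each of the 5 was lowest on CSHA. None of the 102 was at least 2-fold higher on CSHA, where 3.02% of all genes were. The highest was NAF1, an assembly factor of the box H/ACA particle, at 0.93. How many genes passed 2-fold in each direction depended on the scaling. The spike-in scaling raised every difference on CSHA by 0.41, so the 5 genes named as lower stayed lower, but by less than 2-fold. With that scaling, 83 of the 102 were higher on CSHA, with a median of 0.43 beside 0.54 for all genes. Then 5 were at least 2-fold higher, and none was 2-fold lower, where 1.32% of all genes were lower by that much. The share of all genes at least 2-fold higher under that scaling is not given here.

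MYC itself and most of the genes of its network were higher on both membranes. MYC stood at 5.79 on TCP, 6.18 on CS and 6.64 on CSHA, that is 0.39 and 0.85 above TCP. MYCL stood at -1.28, -0.24 and 0.11 by its brightest probe, while its other probe was well above background on CS only, and MYCN was not well above background on any array. MAX, the shared dimer partner, was at 0.30 and 0.29. Of the proteins that compete with MYC for MAX, MXD4 was at 0.46 on CS and 1.07 on CSHA, MXI1 at 0.89 and 0.65, MNT at -0.00 and 0.65, MXD1 at 0.16 and 0.58, and MXD3 at 0.01 and 0.39. MGA was at 0.13 and 0.32. MLX, the partner of the related MondoA factors, was at 0.06 and -0.59, the only gene of this list lower on CSHA. Of the 10 with a value, 9 were higher on each membrane, with medians of 0.23 for CS and 0.62 for CSHA. The share of all genes above TCP was 56.8% for CS and 61.7% for CSHA, with medians of 0.04 and 0.13. The other probes did not all go the same way. On CSHA, dimmer probes of MXD3, MNT and MXD1 were at -0.80, -0.04 and -0.02. The 2 dimmer MXI1 probes were at 1.08 and -0.11. Those of MGA and MXD4 were at 1.36 and 0.34, those of MAX at 0.32 and 0.11, and that of MLX at -0.55. On CS, those of MNT, MLX and MXD3 were at -0.31, -0.20 and -0.19. The dimmer probes of MAX, MGA, MXD1, MXD4 and MXI1 lay between 0.12 and 0.71 on CS.

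**Figure D5:**
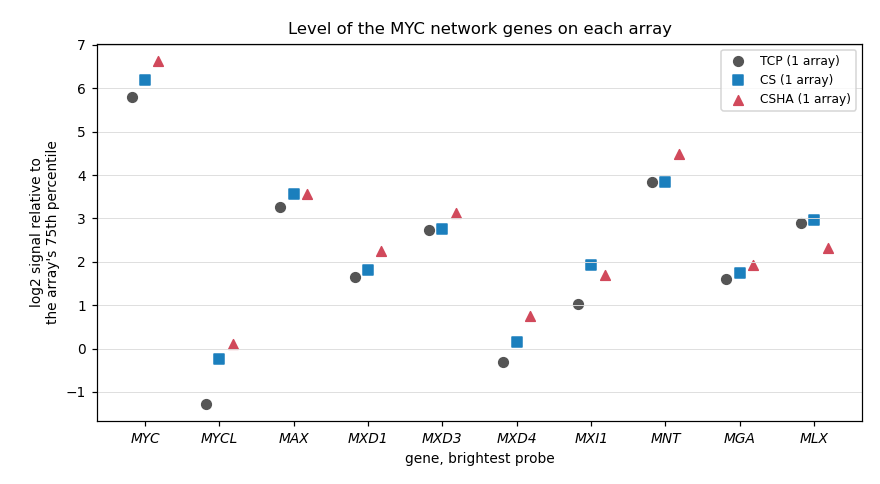
Level of the MYC network genes (y axis, log2 signal of the brightest probe relative to the 75th percentile of the array) on the TCP, CS and CSHA arrays, 1 array each. MYC stood at 5.79, 6.18 and 6.64, and MLX is the gene whose CSHA point lies below its TCP point.

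Genes of the set with a canonical E-box in the promoter window had a lower median on CSHA than those without. The 16 with the motif and a value had a median difference of -0.39 on CSHA, and the 18 without it 0.06. On CS the medians were both -0.04. These medians use the brightest probes. Among the genes without the motif, DKC1, NOP56 and POLR1C each had a dimmer probe, at -1.05, -1.07 and -1.44 on CSHA. The dimmer probes of NPM1, also without it, were higher on CSHA. Medians with the dimmer probes were not computed for these groups. Among all measured genes with a window, those with and without the motif had medians of 0.11 and 0.14 on CSHA. Of the sequences shown above, SRM and NOP2 carry the motif and were low, NOP10 carries 2 copies and was higher on both membranes, UBTF lacks it and was higher on both, and PPAN lacks it and was low. CAD, whose window is not printed, lacks it too and was low, and RRP12 had no window. The 9 genes with the variant CACGCG had a median of 0.12 on CSHA, beside -0.18 for the 25 without it, and all measured genes with and without it had medians of 0.13 and 0.13. A match of letters does not show that a factor binds there, and the parts of E-box content and of level or GC content in these medians were not tested.

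Many small nucleolar RNAs are cut from introns of genes of this set, and 20 of them were listed. On CS, 13 of 17 with a value were lower than on TCP, where 43.2% of all genes were, with a median of -0.34. On CSHA 13 of 16 were lower, where 38.3% of all genes were, with a median of -0.47. Under the spike-in scaling 9 of 16 were lower on CSHA, with a median of -0.06 beside 0.54 for all genes. Of these differences, SNORD82 on CS and SNORD92 on CSHA were lower bounds. Some of the RNAs were dim, such as SNORD105 at -3.49 on TCP. SNORA36A, from an intron of DKC1, stood at 0.02 on TCP, -1.59 on CS and -1.32 on CSHA, while the brightest DKC1 probe was level. SNORA51, from an intron of NOP56, stood at -0.22, -0.93 and -1.44. SNORD105B, from an intron of PPAN, stood at 1.71, 2.39 and 0.91, higher on CS, where PPAN was lower. Levels of the intron-encoded RNAs and of the brightest probes of their hosts therefore differed in size and partly in direction. These short RNAs are not polyadenylated, and how far such probes read host precursor RNA was not tested.

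The culture was checked with marker genes. All 10 epithelial and colon markers were well above background on every array. On each membrane 8 of them were higher, where 56.8% of all genes on CS and 61.7% on CSHA were. Their medians were 0.19 for CS and 0.52 for CSHA. CEACAM5 was the 1 at least 2-fold higher, by 1.57 and 2.16, and KRT20 and CDX2 were higher by 0.90 and 0.88 on CSHA. The lower ones were KRT18 at -0.27 and CDX1 at -0.04 on CS, and LGALS4 at -0.20 and KRT18 at -0.06 on CSHA. The part of these marker differences in the differences of the set was not tested. Of 8 stromal markers, 1 was above background on TCP (SPARC), 0 on CS and 1 on CSHA (PDGFRB), and the collagens COL1A1, COL1A2 and COL3A1 with DCN, LUM and THY1 were not on any array. The immune markers PTPRC, CD3E, CD14 and CD68 were above background on all arrays, except CD3E on CS. On CSHA, CD14 and CD68 were at 1.04 and 1.01 and CD3E at -1.75. The 3 endothelial markers were above background on all arrays as well, with a log2 summed level between -1.65 and -1.38. Singly they were dim, between -3.40 and -2.64 on TCP. PTPRC was dim too, at -3.17 on TCP, where CD3E stood at -1.54, CD68 at -1.57 and CD14 at 1.24. The part of other cell types in the differences of the set was not tested. In RNA of a whole culture, fewer cells that express a gene and less of its RNA per cell cannot be told apart. The share of probes well above background was similar, 48.6% for TCP, 51.1% for CS and 49.9% for CSHA, and no spot was saturated.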

How the data were processed

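HT29 cells on TCP, CS and CSHA were compared on 1 Agilent single-colour array each, and the 3 arrays shared a slide. Spot intensity was deposited by the authors as given by Feature Extraction 10.7.3.1 per the file headers, while the methods name another version. The intensity used here, the processed signal, is corrected for background by that software. The authors also deposited a table of log2 values, which equal the log2 median signal plus a constant for each spot and array, and it served as an alternative. Its column medians were 0.013 for TCP, -0.129 for CS and 0.043 for CSHA. Every sample column of it was mapped, and 0 were left unused. The software's flags for detection, non-uniform spots and outliers were used as deposited.

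Signals were raised to a floor of 1, which changed 0 spots, log2-transformed and reduced by the array's own 75th percentile over probes other than controls. Flagged spots were left out and repeat spots averaged. Of 50599 probes, 30004 were matched by accession to RefSeq symbols (GRCh38.p14), giving 21610 genes. The brightest probe stood for a gene, and 6216 genes had more than 1. Genes entered a comparison if either array detected them well above background, and gave a lower bound if only 1 did. None of the 41 genes with a value rested on a bound. Differences were counted by size, at 2-fold and at 1.5-fold, without a test. Values are printed for the genes at 1.5-fold or more in any comparison and for the highest and lowest of each of the 7 role groups on CSHA, with the rest as differences or ranges. Of genes outside the set, those of the MYC network and the 2-fold genes of the wider ribosome list are named. The genes of the set, the lists and the motifs were chosen with earlier results of these data known.

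Probes printed repeatedly had a median SD among spots of 0.05 to 0.06 on the log2 scale where above background, and the spread of a difference was taken as 0.07. Besides the thresholds, 10 alternatives were planned, among them normexp with an offset of 50, quantile normalization and other scalings, and others were added after seeing the data. The calculation was tested on simulated arrays. Of the immune markers, 1 is not reported here. Promoter motifs were counted as exact matches in a RefSeq table, which lists no window for 7 of the genes. Calculations used Python 3.11.15 (pandas 2.3.3, numpy 2.4.6, scipy 1.17.1, matplotlib 3.10.9) and limma 3.58.1 under R 4.3.3.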

Additional observations from a re-analysis of the deposited data

How the results depend on the processing

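Each value rests on 1 array per substrate, so no replicate could be left out. No paired analysis was possible because each substrate had 1 array. Over 18 summary values of the set, 178 of 216 values under alternatives stayed near the main one and 38 moved. Of 1248 values of single genes, 1146 stayed and 102 moved. Some of these values could not move. Changing the filter on dim probes leaves the 41 genes as they are, since all were well above background. Averaging probes leaves the 35 genes with 1 probe as they are. No difference of 2-fold or more changed its sign under them. Scaling to the 7 brightest spike-in probes gave medians of the set of 0.41 for CSHA minus TCP and 0.29 for CSHA minus CS, and of all genes of 0.54 and 0.42. It left 12 and 10 genes lower, 1 (SRM) and 0 at least 2-fold lower, and 1 (NPM3, between the membranes) at least 2-fold higher. Quantile normalization gave a median of -0.079 on CSHA. With no filter on dim probes the medians of all genes were -0.053 on CS, 0.0085 on CSHA and 0.16 between the membranes, and the median of the set minus these was 0.014, -0.014 and -0.22. Averaging all probes of a gene, the set had medians of -0.12 on CSHA and -0.15 between the membranes, or -0.21 and -0.21 after subtracting that of all genes. With the next brightest probe, which 6 genes have, their medians were -0.18 on CS and -0.54 on CSHA, beside 0.037 for all genes on CSHA, or -0.18 and -0.58 after subtracting the median of all genes. In that setting 5, 4 and 3 were lower on CS, on CSHA and between the membranes, and 3 on CSHA and 1 between the membranes were at least 2-fold lower. On CS, 1 gene became at least 2-fold lower with the 75th percentile of detected probes (TERT, -1.02) and 1 with flagged spots kept (GAR1), a setting chosen after seeing the data. The deposited values kept 1 of 2 genes (NOP2) at least 2-fold lower between the membranes, with SRM just short of it at -0.99, and 4 of 5 on CSHA, without PPAN, as did normexp. At 1.5-fold, 2 genes were lower on CS, where 5.01% of all genes were, and 4 lower and 1 higher between the membranes, where 7.33% and 7.65% were. At 3-fold, 0 were lower on CSHA against TCP and 0 against CS. Counts over all genes at least 2-fold lower, 268 on CS, 582 on CSHA and 314 between the membranes, were 107, 293 and 149 with normexp, 137, 328 and 146 in the deposited values, 1151, 1193 and 676 with no filter, and 247, 191 and 124 with the spike-in scaling, and among genes measured on all arrays 80, 445 and 203. The cause of these shifts was not tested. Arrays limit precision by their number.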
